A study of Mus musculus with 42 samples.

Results

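The genes of the DNA replication machinery were followed through the reprogramming of mouse embryonic fibroblasts (MEF) to induced pluripotent stem cells (iPSC). The set holds 43 genes, picked by name, out of 48321 gene names in each of 2 RNA-seq count tables. All 43 names were found in both tables. Of these, 42 passed the filter on low counts and were tested in each table, among 16132 tested genes in the first table and 15197 in the second. The remaining member, Cdt1, held no count in any library.

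The study sorted cells on their way to pluripotency by a red and a green reporter, in 42 libraries of 14 groups with 3 libraries each. The nx2 set (naivex2 in the labels) carried a Tet1-mCherry transgene and a Pou5f1-EGFP transgene, 1 copy of each, from a cross of B6; 129S4-Tg(Tet1-mCherry)B37Koh with B6;CBA-Tg(Pou5f1-EGFP)2Mnn/J. Its groups, all in the first table, were MEF at day 0, mCherry+/GFP- cells at days 10, 12 and 14, mCherry+/GFP+ cells at days 12 and 14, and clonal iPSC. The tx2 set (totalx2) carried 1 mCherry and 1 GFP allele from a cross of B6- Tet1tm1.1Koh with B6;129S4-Pou5f1tm2Jae/J, whose names put the reporters at Tet1 and Pou5f1 themselves. Its groups, in the second table, were mCherry+/GFP- cells at days 8, 10 and 12 and mCherry+/GFP+ cells at days 10 and 12. The second table also held clonal iPSC of Tet1 knockout (mut/mut;GFP/wt) and wild-type (wt/wt;GFP/wt) genotype, from a cross of B6- Tet1tm1Koh with B6;CBA-Tg(Pou5f1-EGFP)2Mnn/J. All groups were male and carried a Pou5f1 GFP reporter, the knockout and wild-type iPSC had no mCherry reporter, and no fibroblasts or iPSC of the tx2 strain were analysed here. Sorted cells came from 3 independent lines per set, and each iPSC library from a clonal line at passage 6 to 7 that had been grown on feeder cells and then depleted of them. The reprogramming factors are not given in the sources used here.

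Replication starts with licensing. The origin recognition complex (ORC), with CDC6 and CDT1, loads the MCM helicase on DNA in G1, and geminin (Gmnn) blocks a further round by holding CDT1. CDC45 and the GINS complex then switch the helicase on, DNA polymerase alpha-primase lays primers, polymerases epsilon and delta copy the strands on the PCNA clamp that RFC loads, and FEN1 and DNA ligase I (Lig1) join the lagging-strand pieces. Many of these genes are known targets of the E2F transcription factors at the entry to S phase. Mouse pluripotent cells are known for a short G1 and a large share of cells in S phase.

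Library totals lay between 6540256 and 20783265 counts. Counts on mitochondrially encoded genes made up 8.99% of the first day 10 mCherry+/GFP- nx2 library and 12.2% of the first wild-type iPSC library, against 1.75 to 4.02% in the others. These 2 libraries also stood apart from their replicates in replication genes. Pold1, the catalytic subunit of polymerase delta, was at 114 CPM (the count scaled to the size of its library) in that day 10 library against 200.0 and 205 CPM in its replicates, and at 83.2 CPM in that wild-type library against 206 and 199 CPM. Clspn, which encodes the fork adaptor claspin, was at 112 CPM against 73.3 and 72.9 CPM, and at 155 CPM against 84.9 and 81.7 CPM. In both cases Pold1 was low and Clspn high in the library rich in mitochondrial counts. For comparisons of groups that hold these 2 libraries, counts of called members are therefore given with and without them. Values and fold changes of single genes include them unless stated otherwise. Replicate 2 of the GFP- tx2 cells at day 12 has a title without the mCherry mark of its replicates, and its gate was taken from the source name. Tet1 itself was at 54.4, 58.6 and 57.3 CPM in the knockout clones, while the wild-type clones had 1303, 823 and 874 CPM. Of the markers, 14 fibroblast genes summed to 31590 to 32480 CPM in MEF, where 12 pluripotency genes summed to 2.25 to 4.29 CPM. In nx2 iPSC the fibroblast genes summed to 3360 to 6045 CPM and the pluripotency genes to 4802 to 5167 CPM.

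Cdt1, the licensing factor, lies on mm10 at chr8:122568015-122573128 on the plus strand. Its whole span sits inside the predicted gene Gm20388, at chr8:119910841-124345722 on the same strand, which is 4434882 bases long and drew 1375 to 6637 counts per library. Reads were counted over gene bodies, and the file headers give no option that would assign a read to more than 1 gene. Whether this accounts for the 0 counts of Cdt1 was not tested, and they are not read as its level. Of the tested members, 10 shared at most 3.62% of their span with another gene on the same strand. Pcna counts are less certain, as its processed copy Pcna-ps2 drew up to 457 counts in a library of the first table and up to 807 in the second.

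The promoters are shown for the E2F-like word, because the members moved together in several comparisons. RefSeq windows of 300 bases (250 before and 50 after the gene start, GRCm38.p6) were matched for 35 of the 43 members, the other 8 being Gins1, Gins2, Gins4, Gmnn, Mcm4, Pole, Prim2 and Rfc2. The word searched, on both strands, was TTT, then a pair of letters that are each G or C, then CGC. It occurred in the promoters of 14 of 35 members (40.0%), against 704 of 27025 genes in the table (2.60%). The 14 were Cdc6, Cdt1, Clspn, Gins3, Lig1, Mcm3, Mcm5, Mcm6, Mcm7, Orc1, Pola1, Pold1, Pole2 and Rfc3, with 20 matches between them. Of these matches, 11 began before the gene start, and positions ran from -165 to 40. Matches are shown for Cdt1, which has no counts here, and for 7 genes whose values recur in the results, each read along the gene's own strand, with the word or its reverse complement in capitals.
Orc1 (chr4:108579416-108579445, plus strand): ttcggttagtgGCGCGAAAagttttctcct
Cdc6 (chr11:98908002-98908031, plus strand): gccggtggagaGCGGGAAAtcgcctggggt
Mcm3 (chr1:20820275-20820304, minus strand): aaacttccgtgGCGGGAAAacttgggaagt
Mcm5 (chr8:75109345-75109374, plus strand): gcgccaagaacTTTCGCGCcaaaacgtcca
Mcm6 (chr1:128359793-128359822, minus strand): gtatgcttttgGCGCGAAAagtgcgtgcgg
Lig1 (chr7:13278841-13278870, plus strand): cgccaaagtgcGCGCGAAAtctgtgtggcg
Pola1 (chrX:93632275-93632304, minus strand): gtcatcacaggGCGCCAAAtgcactcccgc
Cdt1 (chr8:122568036-122568064, plus strand): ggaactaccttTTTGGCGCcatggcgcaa
In Mcm5 and Mcm6 a further match on the other strand overlaps the one in capitals. The pentamer CCAAT, also on both strands, occurred in 23 of 35 member promoters (65.7%) and in 41.1% of all genes. TTTGAA, 1 of 2 words searched for the cell cycle homology region, occurred in 5 members (14.3%) and in 20.2% of all genes, and TTCGAA, the other, in 2 members (5.71%) and in 1.80%. A match is a stretch of letters and not a measured binding site.

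Across the nx2 groups, 38 of 42 members had their lowest mean in MEF. The members' CPM summed to 3427 ± 58.8 in MEF, 6880 ± 72.7 in day 10 mCherry+/GFP- cells and 7541 ± 567 in iPSC (SD, n = 3 each), and no nx2 group after MEF fell below 6265 ± 185, the sum at day 12 without GFP. Across the groups of the second table, 41 of 42 members had their lowest mean in day 12 mCherry+/GFP- tx2 cells, where the sum was 3667 ± 190 CPM. The highest mean was in wild-type iPSC for 22 members and in knockout iPSC for 17. Rrm1, the large subunit of ribonucleotide reductase, followed neither pattern, with its highest mean of the first table in MEF and its lowest of the second in day 12 GFP+ tx2 cells. Lowest and highest means were counted for the members only. The shares over all tested genes were not taken, so these counts are a description without a background.

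**Figure D1:**
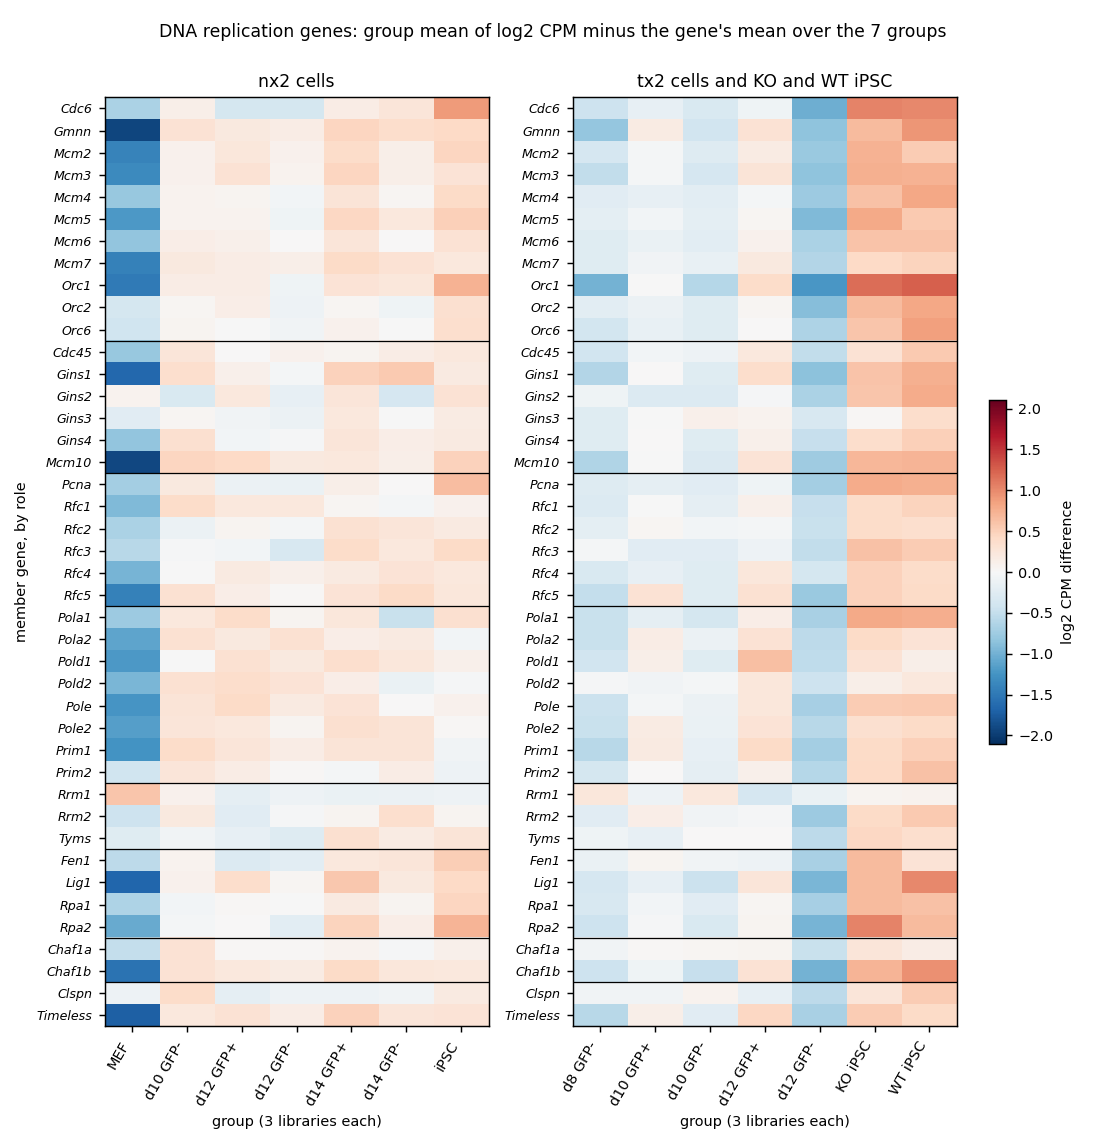
Group mean of log2 CPM of the 42 tested members (rows, grouped by role) minus each gene's mean over the 7 groups of its table, in nx2 cells (left) and in tx2 cells with knockout and wild-type iPSC (right). Blue is below and red above the gene's mean. MEF is the low column of the first table and day 12 GFP- that of the second, and Rrm1 is highest in MEF in the first and lowest in day 12 GFP+ cells in the second.

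The step out of the fibroblast state carried nearly the whole set upward. In day 10 mCherry+/GFP- nx2 cells against MEF, 39 of 42 members were called higher and 2 lower (edgeR quasi-likelihood test, Benjamini-Hochberg adjusted p below 0.05 over all genes), where 38.8% of all tested genes were called higher and 37.6% lower. The median log2 fold change of the members was 1.05, against 0.06 over all genes. All 11 tested licensing genes, all 6 clamp and loader genes and all 8 polymerase and primase genes rose. Without the day 10 library rich in mitochondrial counts, 40 members were called higher and 2 lower.

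Among the licensing genes, Gmnn had 99.6, 98.1 and 101 CPM in day 10 cells, against 22.4, 19.7 and 21.8 CPM in MEF. That is a 4.68-fold difference with no overlap (log2 fold change 2.22 ± 0.08 SE, adjusted p = 3.84e-16, edgeR). Orc1, the largest ORC subunit, had 89.2, 85.3 and 95.3 CPM in day 10 cells and 29.0, 29.3 and 28.3 CPM in MEF (3.11-fold, adjusted p = 1.8e-14, edgeR). The other ORC members rose by less, Orc2 1.33-fold and Orc6 1.40-fold. The 6 genes of the MCM ring rose between 1.83-fold (Mcm4) and 3.09-fold (Mcm7), and Mcm2 had 399, 446 and 445 CPM in day 10 cells, against 152, 150.1 and 157 CPM in MEF. Cdc6, the MCM loader, rose 1.72-fold.

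The genes that switch the helicase on did not move as one. Mcm10, an origin-firing factor, had 221, 214 and 192 CPM in day 10 cells, against 43.7, 41.8 and 36.4 CPM in MEF. Its 5.15-fold rise was the largest of any member (log2 fold change 2.36 ± 0.08 SE, adjusted p = 6.18e-16, edgeR). Gins1, a GINS subunit, had 56.1, 47.4 and 43.3 CPM in day 10 cells and 12.5, 12.3 and 11.8 CPM in MEF, a 4.01-fold rise. Gins2, a partner in the same complex, went the other way, with 25.1, 31.8 and 27.5 CPM in day 10 cells against 37.4, 35.8 and 36.7 CPM in MEF (log2 fold change -0.38 ± 0.09 SE, adjusted p = 0.000658, edgeR). Its fall was no longer called when libraries were scaled by their totals alone (log2 fold change -0.09, adjusted p = 0.399, edgeR), a scaling that moved the median of all genes to 0.34. Gins3 was not called (13.6, 17.6 and 15.4 CPM in day 10 cells, 12.4, 12.5 and 13.3 CPM in MEF, adjusted p = 0.0746, edgeR).

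Of the synthesis and strand-joining genes, Rfc5, a clamp loader subunit, rose 3.34-fold, Prim1, the catalytic primase subunit, 3.12-fold, and Lig1 3.41-fold. Lig1 had 275, 231 and 234 CPM in day 10 cells and 69.1, 76.5 and 71.6 CPM in MEF. Chaf1b, a subunit of the histone chaperone CAF-1, rose 3.65-fold, and Timeless, a fork protection factor, rose 3.84-fold. The nucleotide supply genes split. Rrm2, the small subunit of ribonucleotide reductase, rose 1.55-fold, Tyms, thymidylate synthase, 1.14-fold with overlapping libraries, and Rrm1 fell to 342, 295 and 292 CPM in day 10 cells, against 428, 444 and 429 CPM in MEF (log2 fold change -0.49 ± 0.07 SE, adjusted p = 8.37e-07, edgeR).

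**Figure D2:**
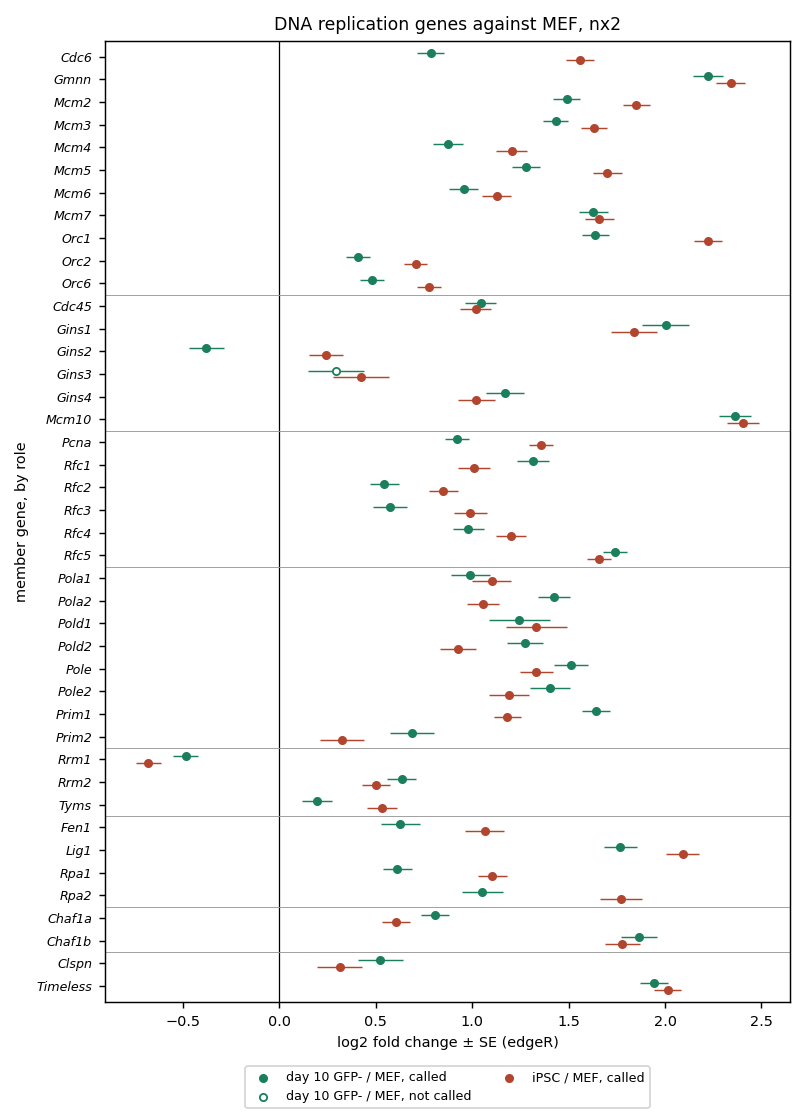
Log2 fold change (x axis, bars are the standard error) of each tested member (y axis, by role) in nx2 day 10 mCherry+/GFP- cells (green) and in nx2 iPSC (red) against MEF, from edgeR, with filled points called at an adjusted p below 0.05. Nearly all points lie right of 0, and Rrm1 lies left of it in both comparisons, at -0.49 and -0.68.

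Genes of the same processes outside the set moved with it. Of 44 tested further replication genes, 33 were called higher at day 10 and 6 lower, among them Dna2, a nuclease-helicase (log2 fold change 2.75), and Nasp, a histone chaperone (2.59), both higher. Of 30 mitosis genes 27 were called higher and 0 lower, such as Bub1b, a spindle checkpoint kinase (1.84). The 32 genes of G1 and S phase control split, with 15 higher and 11 lower. Mybl2, a cell cycle transcription factor, had 883 ± 71.7 CPM in day 10 cells and 42.8 ± 1.60 CPM in MEF, while the cyclin Ccnd1 had 64.1 ± 5.38 and 690 ± 4.48 CPM (SD, n = 3 each). In the same comparison 12 of 14 fibroblast markers were called lower and 12 of 12 pluripotency markers higher. The fibroblast markers summed to 3483 to 4122 CPM in day 10 cells and 31590 to 32480 CPM in MEF. Of 9 tested leukocyte markers 8 were lower and 1 higher. All 10 on the list summed to 14.4 to 20.03 CPM in day 10 cells and 64.9 to 99.2 CPM in MEF. The part of other cell types in the difference of the replication genes was not tested. In bulk RNA, fewer cells of a type and less RNA per cell cannot be told apart, so a lower level may stand for either.

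Between day 10 and day 14 the mCherry+/GFP- nx2 cells changed little in the median of the replication genes. Day 12 lay lower than both and was not tested against them. The members' CPM summed to 6880 ± 72.7 at day 10, 6265 ± 185 at day 12 and 6717 ± 95.3 at day 14 (SD, n = 3 each). Day 14 against day 10 gave 4 members called higher and 9 lower, with background shares of 20.3% and 16.5%, and a median of -0.01. The day 14 libraries all lay above those of day 10 for 8 members (25.8% of all genes) and below for 13 (19.9%). The rises were in 3 clamp loader subunits (Rfc2, Rfc3 and Rfc4) and Tyms, and the largest fall was in Pola1, the catalytic subunit of polymerase alpha. Pola1 had 79.6, 89.0 and 84.9 CPM at day 14, against 158, 121 and 131 CPM at day 10 (log2 fold change -0.70 ± 0.10 SE, adjusted p = 2e-05, edgeR). Clspn fell too (log2 fold change -0.48 ± 0.12 SE), with its highest value in the day 10 library rich in mitochondrial counts. Without that library its log2 fold change was -0.26 (adjusted p = 0.0122, edgeR), and the comparison still had 4 members higher and 9 lower. Of 14 fibroblast markers 10 were called higher at day 14 and 0 lower, and of 10 trophectoderm markers 9 and 0. The fibroblast markers summed to 5679 to 7634 CPM at day 14 and 3483 to 4122 CPM at day 10, and the trophectoderm markers to 424 to 457 and 239 to 254 CPM. Of 12 pluripotency markers 7 were called higher, and the part of these markers was not tested. Leaving out day 14 replicate 2 or day 10 replicate 3 left 2 members called higher.

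In nx2 cells most members leaned higher with GFP, by small amounts. The log2 fold change was positive for 33 of 42 members at day 12 and 31 at day 14. Its median was 0.10 at each day, against 0.00 and -0.02 over all genes. At day 12, 7 members were called higher in mCherry+/GFP+ than in mCherry+/GFP- cells and 0 lower, where 9.93% and 6.69% of all genes were called. The GFP+ libraries all lay above the GFP- ones for 16 members (20.5% of all genes) and below for 3 (19%). The 7 were Gins2, Pola1, Lig1, Rfc3, Orc2, Orc1 and Mcm3. Their folds ran from 1.17 (Mcm3) to 1.32 (Gins2). At an unadjusted p below 0.05 there were 13 members, and DESeq2 called 7 higher and 1 lower. Of 10 tested trophectoderm markers 6 were called lower in GFP+ cells and 0 higher. All 11 on the list summed to 127 to 140 CPM in GFP+ and 256 to 272 CPM in GFP- cells. Cdx2 and Hand1 were at 0 in all GFP+ libraries. Of 12 pluripotency markers 5 were called higher and 1 lower, of 14 fibroblast markers 0 either way, and their part was not tested. The count of members called higher fell to 4 without GFP+ replicate 1, GFP+ replicate 3 or GFP- replicate 2, to 3 without GFP- replicate 1 and to 2 without GFP- replicate 3.

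At day 14 the GFP+ cells had 12 members called higher and 1 lower (14.4% and 16.9% of all genes). The GFP+ libraries all lay above the GFP- ones for 23 members (24.6% of all genes) and below for 6 (28%). Pola1 had 134, 137 and 142 CPM in GFP+ cells, against 79.6, 89.0 and 84.9 CPM in GFP- cells (1.63-fold, adjusted p = 1.77e-05, edgeR). Gins2 had 40.8, 45.9 and 39.0 CPM in GFP+ cells and 27.5, 27.2 and 27.1 CPM in GFP- cells (1.54-fold, adjusted p = 1.96e-05, edgeR). In both genes the lines did not overlap between the gates. Of the MCM ring, Mcm2, Mcm3, Mcm4, Mcm5 and Mcm6 were called higher, by 1.17- to 1.25-fold. Rrm2 was the member called lower, with 433, 443 and 419 CPM in GFP+ cells against 549, 520.2 and 517 CPM in GFP- cells (log2 fold change -0.29 ± 0.07 SE, adjusted p = 0.00433, edgeR). Without GFP- replicate 1 the count called higher fell to 5. The same GFP- libraries stand in the comparison with day 10 above. Of 10 trophectoderm markers 9 were called lower in GFP+ cells, at 124 to 148 CPM against 424 to 457 CPM in GFP- cells. Of 14 fibroblast markers 5 were called lower and 1 higher, and of 12 pluripotency markers 9 higher and 1 lower, and the part of these lists was not tested. The difference between the GFP effects at day 14 and day 12 was called for 0 members in either direction by edgeR and by DESeq2, with 2 at an unadjusted p below 0.05 (background 0.688% and 0.855%).

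Within the GFP+ nx2 cells, day 14 against day 12 gave 15 members called higher and 0 lower (14.5% and 16% of all genes), and 22 at an unadjusted p below 0.05, while DESeq2 called 19 and 0. The day 14 libraries all lay above those of day 12 for 25 members (24.6% of all genes) and below for 4 (25.6%). Cdc6 had 62.3, 60.6 and 61.3 CPM at day 14, against 42.7, 41.6 and 42.8 CPM at day 12 (1.45-fold, adjusted p = 1.21e-05, edgeR). Fen1, the flap nuclease, and Tyms each rose 1.41-fold. The count called higher was 9 without the day 14 replicate 2. With the line as a replicate block 2 members were called lower by edgeR, Mcm10 (log2 fold change -0.20) and Pold2 (-0.23). Over the same step 8 of 14 fibroblast markers were called higher and 0 lower, at 4881 to 5770 CPM at day 14 and 4088 to 4632 CPM at day 12. Of 12 pluripotency markers 7 were called higher and 0 lower, and of 10 trophectoderm markers 5 higher and 1 lower, with sums of 124 to 148 CPM at day 14 and 127 to 140 CPM at day 12. Their part was not tested. The rise was not seen in GFP+ cells alone, though the step was not tested in GFP- cells. There the members' CPM summed to 6717 ± 95.3 at day 14 and 6265 ± 185 at day 12 (SD, n = 3 each). In these GFP- cells mean Cdc6 was 65.3 CPM at day 14 and 42.4 CPM at day 12, Fen1 93.9 and 67.5 CPM, and Tyms 76.2 and 56.2 CPM.

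Clonal nx2 iPSC against GFP+ day 14 cells gave calls in both directions. Here 9 members were called higher and 6 lower (24.3% and 22.5% of all genes), and the median was 0.02. Of 14 fibroblast markers 7 were called higher in iPSC and 1 lower, though their sums overlapped, at 3360 to 6045 CPM in iPSC and 4881 to 5770 CPM in day 14 GFP+ cells. Of 9 leukocyte markers 4 were called higher and 1 lower, at 12.4 to 14.8 CPM in iPSC and 19.1 to 21.9 CPM in day 14 cells. Of 10 trophectoderm markers 6 were called lower and 0 higher, at 63.3 to 137 CPM in iPSC and 124 to 148 CPM in day 14 cells, and of 12 pluripotency markers 2 were higher and 5 lower. Their part was not tested. Cdc6 had 95.9, 98.6 and 112 CPM in iPSC, against 62.3, 60.6 and 61.3 CPM in day 14 GFP+ cells (1.67-fold, adjusted p = 4.81e-08, edgeR). Orc1, Orc2 and Orc6 were also called higher, by 1.36-, 1.23- and 1.20-fold. Pcna, the sliding clamp, had 294, 278 and 315 CPM in iPSC and 208, 212 and 197 CPM in day 14 GFP+ cells (1.44-fold, adjusted p = 1.09e-06, edgeR).

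Of the 8 polymerase and primase genes none was called higher in these iPSC and 3 were called lower. Prim1 had 76.6, 70.2 and 79.7 CPM in iPSC, against 91.8, 97.2 and 96.9 CPM in day 14 GFP+ cells (log2 fold change -0.34 ± 0.07 SE, adjusted p = 0.0004, edgeR). Pole2 and Pola2 were at 0.811- and 0.870-fold of their day 14 levels, with the call of Pola2 lost under the line as a replicate block (adjusted p = 0.0507, edgeR), and Gins1, Timeless and Mcm3 were the others called lower. Only 1 of the 30 mitosis genes was called higher and 15 lower. The 6 lower calls fell to 1 without iPSC replicate 2, to 2 without day 14 replicate 1 or 3 and to 3 without day 14 replicate 2. Against MEF, iPSC had 41 members called higher and 1, Rrm1, lower (37.9% and 39.4% of all genes), led by Mcm10 (5.30-fold), Gmnn (5.08-fold) and Orc1 (4.66-fold).

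**Figure D3:**
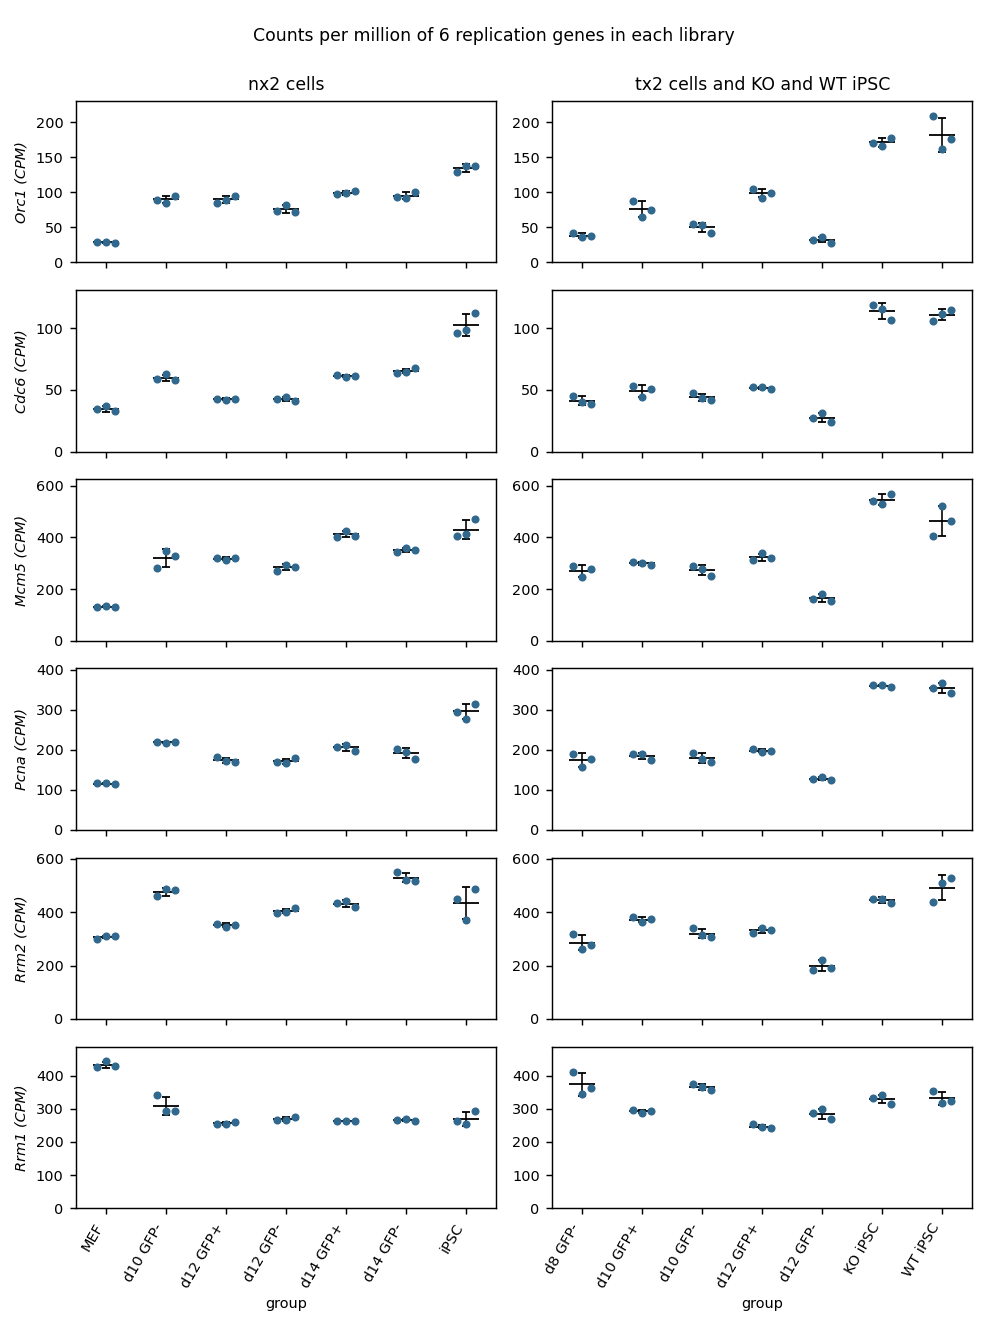
CPM of 6 members (rows) in each library (points), with the mean and SD of the 3 libraries of a group (black), in nx2 cells (left) and in tx2 cells with knockout and wild-type iPSC (right). The y axes start at 0 and are the same for both columns of a row. Orc1, Cdc6 and Pcna are highest in iPSC in each column. Within the right column all but Rrm1 are lowest in day 12 GFP- cells of the tx2 set.

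The tx2 cells differed by gate far more at day 12 than at day 10. At day 12, 41 of 42 members were called higher in mCherry+/GFP+ than in mCherry+/GFP- cells and 1, Rrm1, lower, where 31.2% and 30.4% of all genes were called. The GFP+ libraries all lay above the GFP- ones for 41 members (38% of all genes) and below for 1 (34.9%). The median of the members was 0.78, against 0.05 over all genes. Without the GFP- library whose title lacks the mCherry mark, 40 were called higher and 1 lower. The weakest call, Clspn (1.31-fold, adjusted p = 0.0424, edgeR), was lost without any 1 of the 6 libraries.

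All 11 licensing genes were higher. Orc1 (chr4:108579423-108614833) had 104, 92.4 and 99.3 CPM in day 12 GFP+ cells, against 32.7, 36.2 and 28.4 CPM in GFP- cells, a 3.04-fold difference (log2 fold change 1.61 ± 0.13 SE, adjusted p = 4.06e-09, edgeR). Gmnn had 86.8, 86.2 and 92.3 CPM in GFP+ cells and 43.7, 41.6 and 35.2 CPM in GFP- cells (2.20-fold, adjusted p = 8.56e-08, edgeR). Mcm3 had 371, 367 and 380.2 CPM in GFP+ cells and 170, 184 and 165 CPM in GFP- cells (2.16-fold, adjusted p = 3.59e-10, edgeR). Every tested gene of the MCM ring was higher, from 1.64-fold (Mcm4) to 2.16-fold (Mcm3), and Cdc6 was 1.89-fold higher.

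Gins1 led the helicase activators, at 43.04, 44.9 and 45.8 CPM in day 12 GFP+ cells against 18.3, 19.8 and 19.5 CPM in GFP- cells (2.32-fold, adjusted p = 1.54e-07, edgeR). Gins2 and Gins3 were 1.55- and 1.33-fold higher. Pold1 had 210, 206 and 226 CPM in GFP+ cells and 98.7, 101 and 88.0 CPM in GFP- cells (2.23-fold, adjusted p = 0.000108, edgeR). Lig1 had 225, 225 and 238 CPM in GFP+ cells, against 102, 97.6 and 98.5 CPM in GFP- cells (2.31-fold, adjusted p = 9.04e-10, edgeR). Chaf1b was 2.46-fold higher, while Chaf1a, its partner in CAF-1, was 1.43-fold higher.

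Rrm1 (chr7:102441695-102469771) stood alone below 0, at 253, 244 and 243 CPM in day 12 GFP+ cells against 287, 299 and 270.0 CPM in GFP- cells (log2 fold change -0.21 ± 0.07 SE, adjusted p = 0.0185, edgeR). This call was lost without GFP+ replicate 2 (adjusted p = 0.056, edgeR). Its partner Rrm2 had 322, 342 and 332 CPM in GFP+ cells and 182, 221 and 193 CPM in GFP- cells, 1.67-fold higher (adjusted p = 8.11e-07, edgeR).

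Most other replication and mitosis genes were also higher at day 12. Of 44 further replication genes 36 were called higher in GFP+ cells and 2 lower, and of 30 mitosis genes 24 were called higher and 0 lower. The 32 genes of G1 and S phase control had 14 higher and 11 lower, with Mybl2 (log2 fold change 2.51) and Mycn (2.52), both transcription factors, among the higher. Cell type markers moved too. Of 14 fibroblast markers 13 were called lower and 1 higher, with summed levels of 6088 to 6272 CPM in GFP+ cells and 12610 to 15860 CPM in GFP- cells, and none of the markers was at 0 in all libraries of either gate. The 12 pluripotency markers were all called higher, at 4113 to 4257 CPM in GFP+ cells and 755 to 932 CPM in GFP- cells. The part of the cell mixture in the difference of the replication genes was not tested.

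At day 10 the same gates gave 11 members called higher and 1 lower (13% and 9.36% of all genes), with a median of 0.16. The GFP+ libraries all lay above the GFP- ones for 21 members (22.2% of all genes) and below for 2 (17.7%). Orc1 had 88.0, 64.8 and 74.7 CPM in GFP+ cells, against 54.1, 53.6 and 42.6 CPM in GFP- cells (1.51-fold, adjusted p = 0.00148, edgeR). Gmnn was 1.49-fold and Rfc5 1.45-fold higher, followed by Chaf1b, Timeless and Prim1. Rrm1 had 296, 287 and 294 CPM in GFP+ cells and 376, 367 and 357 CPM in GFP- cells, without overlap (log2 fold change -0.33 ± 0.07 SE, adjusted p = 0.00256, edgeR). The count called higher was 5 without GFP+ replicate 1, 6 without GFP+ replicate 3 or GFP- replicate 2, and 4 without GFP- replicate 3. It was 17 without the wild-type iPSC library rich in mitochondrial counts, which enters the estimate of the spread but neither gate. At this day the 12 pluripotency markers were all called higher in GFP+ cells, at 2709 to 2897 CPM against 733 to 1006 CPM, while the fibroblast markers overlapped, at 6982 to 14370 CPM in GFP+ and 4749 to 10590 CPM in GFP- cells. Of 9 leukocyte markers 8 were called higher in GFP+ cells, at 60.8 to 189 CPM against 11.6 to 31.0 CPM in GFP- cells, and their part was not tested.

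**Figure D4:**
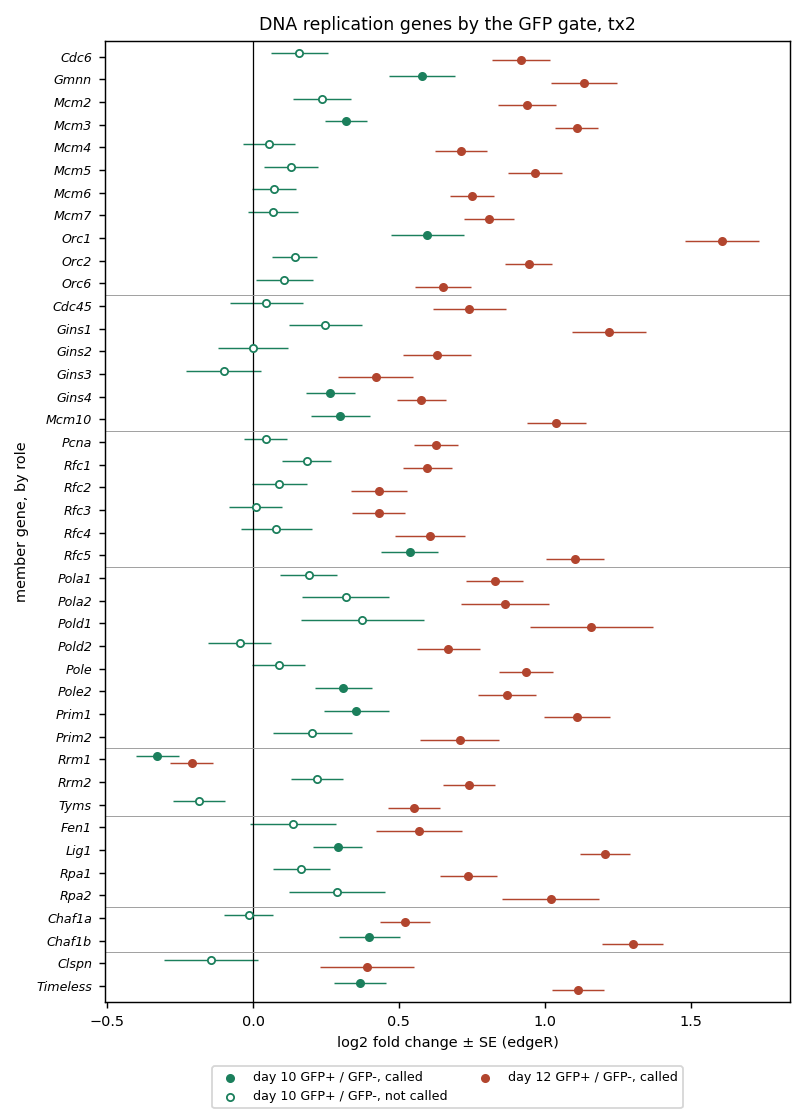
Log2 fold change (x axis, bars are the standard error) of each tested member (y axis, by role) in GFP+ against GFP- mCherry+ tx2 cells at day 10 (green) and day 12 (red), from edgeR, with filled points called at an adjusted p below 0.05. Every red point lies to the right of the green point of its gene, and Orc1 reaches 1.61 at day 12.

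The difference between the 2 GFP effects was tested directly. The effect at day 12 minus that at day 10 was positive for all 42 members and called higher for 34 and lower for 0 (10.5% and 16.7% of all genes), with a median of 0.65. Orc1 (log2 difference 1.01 ± 0.18 SE, adjusted p = 0.000592, edgeR), Gins1 (0.97 ± 0.18), Lig1 (0.92 ± 0.12), Chaf1b (0.90 ± 0.15), Pole, the catalytic subunit of polymerase epsilon (0.85 ± 0.13), and Mcm5 (0.84 ± 0.13) had the largest. All 11 licensing genes were among those called. Of the further lists, 23 replication genes were called higher and 1 lower, and 13 mitosis genes higher and 0 lower. Of 14 fibroblast markers 13 were called lower and 0 higher, and of 9 leukocyte markers 5 lower and 0 higher. Of 12 pluripotency markers 4 were called higher and 0 lower, and of 10 trophectoderm markers 0 higher and 2 lower. Their part was not tested.

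The same libraries were then compared between days within each gate, so these values are not independent of the difference above. In GFP- cells, day 12 against day 10 gave 0 members called higher and 40 lower (16.1% and 12% of all genes), with a median of -0.46. This comparison was added after the levels had been seen. Mcm5 fell most, to 163, 181 and 153 CPM at day 12, against 291, 277 and 252 CPM at day 10 (log2 fold change -0.72 ± 0.09 SE, adjusted p = 4.09e-05, edgeR). Cdc6 had 27.5, 30.9 and 23.6 CPM at day 12 and 47.2, 43.4 and 41.7 CPM at day 10 (log2 fold change -0.69 ± 0.10 SE, adjusted p = 9.73e-05, edgeR). Rrm2 had 182, 221 and 193 CPM at day 12 and 339, 314 and 306 CPM at day 10 (log2 fold change -0.69 ± 0.09 SE, adjusted p = 4.12e-05, edgeR).

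In those cells Rpa2, a subunit of the single-strand binding protein, Orc2 and Clspn followed, with log2 fold changes of -0.65, -0.64 and -0.63. Rrm1 fell as well here (log2 fold change -0.36 ± 0.07 SE). The 2 members that were not called were Rfc4, at 25.3, 26.7 and 22.3 CPM at day 12 and 27.9, 25.5 and 26.8 CPM at day 10, and Pold1, at 98.7, 101 and 88.0 CPM at day 12 and 132, 111 and 108 CPM at day 10. Of the mitosis genes 0 were called higher and 16 lower. Of the fibroblast markers 7 were called higher and 0 lower over the same step, at 12610 to 15860 CPM at day 12 and 4749 to 10590 CPM at day 10. Of 10 trophectoderm markers 5, and of 12 pluripotency markers 4, were called higher and 0 lower, and the part of these markers in the fall was not tested. Without the library whose title lacks the mCherry mark 35 members were called lower.

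Against day 8, the day 12 GFP- cells had 0 members called higher and 27 lower (17.1% and 14.5% of all genes), with a median of -0.34. Mcm5 had 163, 181 and 153 CPM at day 12, against 291, 245 and 277 CPM at day 8 (log2 fold change -0.71 ± 0.09 SE, adjusted p = 1.78e-05, edgeR). All 4 strand processing and binding genes (Fen1, Lig1, Rpa1 and Rpa2) and all 3 nucleotide supply genes fell, but 2 of 8 polymerase and primase genes. Here the fibroblast markers were at 12610 to 15860 CPM at day 12 and at 15940 to 24480 CPM at day 8, with 5 of 14 called lower and 1 higher. Of 10 trophectoderm markers 9 were called higher and 0 lower, at 87.7 to 122 CPM at day 12 and 39.3 to 45.0 CPM at day 8, where Cdx2 was at 0 in all libraries. Of 12 pluripotency markers 9 were called higher and 0 lower, at 755 to 932 CPM at day 12 and 483 to 612 CPM at day 8. Their part was not tested. The lower call of Orc6 was lost with the line as a replicate block (adjusted p = 0.0516, edgeR). The count was 16 without day 8 replicate 1 and 22 without the library whose title lacks the mCherry mark.

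In GFP+ cells, day 12 against day 10 gave 13 members called higher and 1 lower (12.2% and 12.9% of all genes). Lig1 had 225, 225 and 238 CPM at day 12, against 182, 163 and 170 CPM at day 10 (1.34-fold, adjusted p = 0.00144, edgeR). Rfc4 was 1.34-fold, Chaf1b 1.31-fold and Orc1 1.30-fold higher. Of 14 fibroblast markers 12 were called lower over this step and 1 higher, at 6088 to 6272 CPM at day 12 and 6982 to 14370 CPM at day 10. Of 9 leukocyte markers 6 were called lower and 0 higher, at 46.2 to 78.5 CPM at day 12 and 60.8 to 189 CPM at day 10. Of 12 pluripotency markers 8 were called higher and 0 lower, at 4113 to 4257 CPM at day 12 and 2709 to 2897 CPM at day 10, and of 10 trophectoderm markers 5 higher and 0 lower. Their part was not tested. The count called higher was 6, 7 and 3 without day 12 replicates 1, 2 and 3, and 2 and 3 without day 10 replicates 2 and 3. The fall of Rrm1 (log2 fold change -0.24 ± 0.07 SE, adjusted p = 0.0204, edgeR) was lost without day 12 replicate 2, day 12 replicate 3 or day 10 replicate 3, when 0 members were called lower.

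Wild-type iPSC of the second table stood above day 12 GFP+ tx2 cells in most members. Of 42, 32 were called higher and 0 lower (25% and 26% of all genes), with a median of 0.44, but strain and reporters differ between the groups and cannot be told apart from the stage. The iPSC libraries all lay above the GFP+ ones for 33 members (25.8% of all genes) and below for 0 (28.6%). Cdc6 had 106, 112 and 115 CPM in wild-type iPSC, against 51.9, 52.1 and 50.9 CPM in day 12 GFP+ cells (2.15-fold, adjusted p = 2.9e-08, edgeR). Orc1 had 209, 162 and 176 CPM in wild-type iPSC and 104, 92.4 and 99.3 CPM in GFP+ cells (1.84-fold, adjusted p = 8.66e-06, edgeR). Pcna had 354, 367 and 341 CPM in wild-type iPSC and 202, 194 and 198 CPM in GFP+ cells (1.79-fold, adjusted p = 3.8e-08, edgeR).

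All 11 licensing genes were higher in these iPSC, Orc6 by 1.82-fold and Mcm4 by 1.81-fold, but 3 of 8 polymerase and primase genes. Rrm1 was called higher here, at 355, 316 and 325 CPM in wild-type iPSC against 253, 244 and 243 CPM in GFP+ cells (1.35-fold, adjusted p = 9.17e-05, edgeR), its single rise in 14 comparisons of groups against 8 falls. The mitosis genes were split, with 5 higher and 4 lower of 30. Of 10 trophectoderm markers 7 were called lower in these iPSC and 1 higher, of 14 fibroblast markers 4 lower and 3 higher, and of 12 pluripotency markers 6 higher and 1 lower, and their part was not tested. Without the wild-type library rich in mitochondrial counts 31 members were called higher. Cdc6, Orc1, Orc2, Orc6 and Pcna were thus among the members called higher in iPSC than in late GFP+ cells in each of the 2 tables. In the second table strain and reporters differ as well.

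Few members were called different between Tet1 genotypes. In knockout against wild-type iPSC, 0 members were called higher and 1 lower by edgeR (4.78% and 5.87% of all genes), with 9 at an unadjusted p below 0.05, while DESeq2 called 2 lower. The member was Lig1, at 320.1, 297 and 298 CPM in knockout clones against 446, 362 and 358 CPM in wild-type clones (log2 fold change -0.35 ± 0.08 SE, adjusted p = 0.0107, edgeR). The call was lost without knockout replicate 2 (adjusted p = 0.0656, edgeR) or replicate 3 (adjusted p = 0.0645, edgeR), and the log2 fold change was -0.24 without the wild-type library rich in mitochondrial counts (adjusted p = 0.031, edgeR). Without that library 2 members were called lower, the added one being Gins2 (log2 fold change -0.35, adjusted p = 0.0159, edgeR), and without wild-type replicate 2 or 3 there were 2 and 3 lower, with 2 called higher in the first case.

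Members that were not called are bounded by 3 clones per genotype and by a spread estimated over all groups of the table. Mcm2 had 644, 626 and 634 CPM in knockout clones and 456, 609 and 611 CPM in wild-type clones, and the low wild-type value is that of the library rich in mitochondrial counts. Pcna had 361, 363 and 358 CPM in knockout clones, against 354, 367 and 341 CPM in wild-type clones (log2 fold change 0.03 ± 0.07 SE). Orc1 had 171, 165 and 178 CPM in knockout and 209, 162 and 176 CPM in wild-type clones (log2 fold change -0.09 ± 0.12 SE). The median standard error of the log2 fold change over the members was 0.0963. The log2 fold changes of the members that were not called ran from -0.34 (Clspn) to 0.33 (Fen1). Both genes stood apart in the wild-type library rich in mitochondrial counts. Clspn was at 155 CPM in it, against 84.9 and 81.7 CPM in the other wild-type clones and 77.5 to 87.8 CPM in knockout clones. Fen1 was at 70.7 CPM in it, against 127 and 126 CPM and 134 to 139 CPM. Gins3, also not called, had 14.0 to 16.1 CPM in knockout and 18.7 to 19.8 CPM in wild-type clones. Differences of this size were thus not called for these members with 3 clones per genotype. Of the further replication genes 3 were called lower and 0 higher, among them Mcm8, a helicase paralog (log2 fold change -0.52).

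The members whose promoters held the E2F-like word were compared with the other members that had a promoter window, as a description. In day 12 GFP+ against GFP- tx2 cells the median log2 fold change was 0.87 over 13 tested members with the word and 0.74 over 21 without it. In day 10 nx2 cells against MEF the medians were 1.25 and 1.04, and in day 12 against day 10 GFP- tx2 cells -0.46 and -0.48. In knockout against wild-type iPSC they were -0.01 and 0.03. The medians of both kinds had the same sign in the first 3 of these comparisons. By the nx2 gate at day 12 the medians were 0.16 with the word and 0.07 without it. Called higher there were 5 of 13 members with the word and 1 of 21 without it. At day 14 the nx2 gate gave medians of 0.17 and 0.09, with 5 of 13 and 4 of 21 called higher. The difference between the kinds was not tested. Mcm10, Timeless and Chaf1b, among the largest rises against MEF, had no match in the window searched.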

How the data were processed

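RNA was measured by poly(A) strand-specific RNA-seq in 42 libraries. The values are raw counts per gene, which the authors obtained with featureCounts 1.5.3 on gene bodies and the reverse strand, per the file headers, from reads aligned to mm10 with HISAT2 2.1.0, per the submitters' processing notes. Those notes also name DESeq2 1.18.1. Because introns were counted, levels are not compared between genes. The members and lists were chosen with earlier results of these data known.

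Each table of 21 libraries was fitted alone. The nx2 libraries are in the first, and tables were not compared by value. Low counts were removed with filterByExpr. TMM factors ran between 0.782 and 1.07. The test was the robust quasi-likelihood F test of edgeR 4.0.16 (R 4.3.3), with a term per group, Benjamini-Hochberg adjustment over all tested genes and a call at 0.05. CPM uses the TMM-scaled totals. The log2 fold changes are those of the edgeR fit at its default prior count. A prior count of 2 enters the log2 CPM per library from which deviations from group means were taken. A library detected 18838 to 21666 genes. There are 16 comparisons, of which day 12 against day 10 GFP- tx2 cells was added after the levels were seen. Alternatives were RLE size factors, library totals, upper-quartile factors (added later), no filter on low counts, a minimum of 1 CPM in 3 libraries, a replicate block, leaving out the 2 libraries over 8% mitochondrial counts, DESeq2 1.42.0, fits of the compared groups only, and leaving out each library. The scripts were tested on simulated data. For each gene the p-values rest on an estimate of spread shared by all groups of its table, with 3 lines or clones per group. Per the labels' titles, same-numbered nx2 libraries share a line name, and so do same-numbered tx2 libraries, so there a number pairs them. Their deviations from the group means correlated above 0.1 in 32 of 63 nx2 pairs and in 30 of 30 tx2 pairs (0.126 to 0.593).

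Values by sample are given for at most 6 called members with the largest rise and 6 with the largest fall in a comparison, for called members against the majority (at most 3), and for Mcm2, Mcm5, Cdc6, Cdt1, Orc1, Pcna, Rrm2 and Gmnn; a list names at most 4 called genes with the smallest adjusted p. Other members named were chosen after their values were seen. Lists were further replication genes, mitosis, G1 and S phase control, and markers of fibroblasts, pluripotency, leukocytes and trophectoderm. Marker sums take all genes of a list, 10 for leukocytes and 11 for trophectoderm. Calls count the tested genes, 9 and 10 of these. Overlaps of gene spans were found with GenomicRanges 1.54.1, and figures drawn with matplotlib 3.10.9.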

Additional observations from a re-analysis of the deposited data

Results flagged for a closer look

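The effect of the GFP gate in tx2 cells differed between day 12 and day 10, by a test of the difference itself (interaction term, edgeR quasi-likelihood test, Benjamini-Hochberg adjustment over all genes). The log2 effect was larger at day 12 for 34 of 42 members past the threshold. The difference on the log2 scale was 1.01 for Orc1, 0.97 for Gins1, 0.92 for Lig1, 0.90 for Chaf1b, 0.85 for Pole and 0.84 for Mcm5. Fibroblast marker levels moved with it, as 13 of 14 of these markers had a called difference in the opposite direction. Of 9 leukocyte markers 5 were called lower and 0 higher, and of 10 trophectoderm markers 2 lower and 0 higher. Of 12 pluripotency markers 4 were called higher and 0 lower. The part of these markers was not tested.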

How the results depend on the processing

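Of the 424 values of members that were called in at least 1 fit, none changed sign in the alternatives run. Scaling by library totals left 1 member called lower in day 10 nx2 cells against MEF, gave 10 higher in day 14 against day 10 GFP- nx2 cells, 10 lower in nx2 iPSC against day 14 GFP+ cells and 6 higher in day 12 against day 10 GFP+ tx2 cells. With no filter on low counts, 3 were higher by the nx2 gate at day 12, 2 lower in nx2 iPSC against day 14, 6 higher by the tx2 gate at day 10, and 7 higher and 0 lower in day 12 against day 10 GFP+ tx2 cells. RLE factors gave 7 higher by the tx2 gate at day 10. Without the libraries rich in mitochondrial counts, 1 was lower by the nx2 gate at day 12, 3 lower in day 14 against day 12 GFP+ nx2 cells, 11 lower in nx2 iPSC against day 14, 17 higher by the tx2 gate at day 10 and 2 lower in knockout iPSC. DESeq2 gave 1 lower by the nx2 gate at day 12 and 2 lower in knockout iPSC.

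Fits of the compared groups only gave 2 higher and 5 lower in day 14 against day 10 GFP- nx2 cells, 11 higher and 1 lower by the nx2 gate at day 12, 2 lower by it at day 14, 1 higher and 1 lower for the difference of these gates, 23 higher and 4 lower in day 14 against day 12 GFP+ nx2 cells, 1 lower in nx2 iPSC against day 14, 3 lower in day 12 against day 10 GFP+ tx2 cells and 0 lower in knockout iPSC. The cause of these changes was not tested.

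With the replicate block, 2 were lower in day 14 against day 12 GFP+ nx2 cells, 1 lower in wild-type iPSC against day 12 GFP+ tx2 cells and 2 lower in knockout iPSC. For the knockout and wild-type iPSC, where 0 of 3 pairs correlated above 0.1, the number is only a number. The block ended the call of 2 member values, Pola2 in nx2 iPSC against day 14 GFP+ cells and Orc6 in day 12 against day 8 GFP- tx2 cells, and added 12 calls.

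Leaving out each library gave 38 to 40 higher and 2 lower for day 10 nx2 cells against MEF, 39 to 41 and 1 for nx2 iPSC against MEF, 2 to 4 and 8 to 11 for day 14 against day 10 GFP- nx2 cells, 2 to 5 and 0 by the nx2 gate at day 12, 5 to 10 and 1 at day 14, 9 to 13 and 0 for day 14 against day 12 GFP+ nx2 cells and 7 to 9 and 1 to 8 for nx2 iPSC against day 14. It gave 39 to 40 and 0 to 1 by the tx2 gate at day 12, 4 to 11 and 1 at day 10, 29 to 34 and 0 for their difference, 28 to 38 lower in day 12 against day 10 and 16 to 24 against day 8 GFP- tx2 cells, 2 to 13 and 0 to 1 for GFP+ tx2 cells, 31 to 32 and 0 to 1 for wild-type iPSC against day 12 GFP+ cells, and 0 to 2 and 0 to 3 for knockout iPSC. Across these 2802 tests 312 lost and 24 gained a call. Depth limits low members such as Gins3, at group means of 11.8 to 19.3 CPM, and counting error was not separated from the spread of lines.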
